A study of Mus musculus with 4 samples.

Results

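The rapid response genes described here are 32 genes of the kind that a stimulus, or the removal of cells from the tissue, can induce rapidly. Whether isolation induced them in these libraries was not tested. They were found by symbol from a list that was drawn up with earlier results of these data known, and all 32 were present among the 49993 genes with a count. All 32 also passed the filter on low counts. Counts were lowest for Dusp2 (5 to 19 reads per library), and single libraries held as few as 9 reads of Egr2, 12 of Fosb and 13 of Rgs1. By role they are bZIP transcription factors of the AP-1 group and their partners (Fos, Fosb, Fosl2, Jun, Junb, Jund, Atf3 and Maff), zinc finger factors (Egr1, Egr2, Egr3, Klf2, Klf4 and Klf6), orphan nuclear receptors (Nr4a1, Nr4a2 and Nr4a3), phosphatases (Dusp1, Dusp2, Dusp5 and Dusp6), growth and stress genes (Ier2, Ier3, Ier5, Btg2, Gadd45b and Csrnp1), feedback genes (Zfp36, Nfkbiz and Rgs1) and genes best known from active neurons (Arc and Npas4).

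The study compared CD11b+ cells, taken as microglia, that had been pulled with magnetic beads from the brains of mice aged 10 months. All mice carried APP/PS1, the transgenes of an amyloid model of Alzheimer's disease. In the AD group the asrij gene (Ociad1) was intact (APP/PS1+ asrij+/+, n = 2 libraries), and in the AD/KO group it had been deleted constitutively, hence in every cell type (APP/PS1+ asrij-/-, n = 2 libraries). The labels do not say which promoter drives the transgenes, how many mice went into a library or whether the libraries came from separate mice, so that p-values measure only the spread between these samples, which may be technical.

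As background, a stimulus reaches these genes through kinases of the MAPK pathway and through calcium, which act on factors already present in the cell, among them SRF with its ternary complex partners and CREB. The first genes to respond encode transcription factors, which then drive later genes, and phosphatases and RNA-binding proteins, which end the response. In microglia genes of this kind answer tissue damage, Toll-like receptor ligands and the isolation procedure. In neurons they answer synaptic activity, and Arc and Npas4 are used there as activity markers. CD11b is also carried by neutrophils, monocytes and other macrophages, which the beads can therefore retain.

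The libraries held from 13102622 to 19810076 counts, and the 32 genes took from 0.0856% to 0.129% of them. Levels are given as CPM, counts scaled to library size with TMM factors. Ociad1, the deleted gene, stood at 50.2 and 63.4 CPM in the AD libraries and 38.9 and 32.1 CPM in the AD/KO libraries, or −0.68 (SE 0.29) as a log2 fold change. The transcript was thus not lost in the libraries labelled AD/KO, and the group names below follow the labels. The microglial genes P2ry12 and Tmem119 were present in all 4 libraries, at 348 to 1336 CPM and 404 to 1554 CPM, with the lowest level of both in AD/KO replicate 2. The 17 homeostatic microglia markers together, none of them among the 32 genes, came to 22933 and 15357 CPM in the AD libraries and 22822 and 6686 CPM in the AD/KO libraries. Markers of other cells differed between libraries as well. The 11 neuron markers summed to 618 and 1909 CPM in AD and 1525 and 4703 CPM in AD/KO, the 10 astrocyte markers to 1903 and 4480 CPM against 4682 and 11958 CPM, and the 8 oligodendrocyte markers to 1634 and 2610 CPM against 3906 and 8530 CPM. Most of the oligodendrocyte sum was Mbp and Mobp, whereas Mag, Mog and Opalin were highest in AD replicate 2. The 6 border-associated macrophage markers came to 128 and 97.1 CPM in AD and 67.6 and 58.8 CPM in AD/KO, with 4 of the 6 lower without overlap. The 10 neutrophil markers stood at 5077 CPM in AD replicate 2 and between 395 and 608 CPM in the other libraries, and the 4 monocyte markers at 375 CPM there and between 33.8 and 66.3 CPM elsewhere. Most of the monocyte sum in AD replicate 2 was Chil3 (294 CPM), whose groups overlapped. The other 3 monocyte markers were lower in AD/KO without overlap (21.7% of all genes). Ccr2 stood at 39.8 and 40.0 CPM in AD against 10.3 and 6.13 CPM in AD/KO, and Plac8 at 10.7 and 13.6 against 4.54 and 2.55 CPM. No defining marker of the neuron, astrocyte, oligodendrocyte, neutrophil or monocyte lists was at 0 reads in any library.

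Promoter sequences are shown first, because matches to the Egr site occurred both in genes higher and in genes lower in both AD/KO libraries. The matches are by sequence alone, and binding or function was not tested. RefSeq windows on GRCm38.p6, from 250 bases before to 50 bases after a start site, were at hand for 26 of the 32 genes (35 windows). The genes without an entry were Egr1, Egr3, Ier2, Nfkbiz, Rgs1 and Arc. Both strands were searched for the CRE bound by CREB (TGACGTCA), the AP-1 site (TGANTCA), the Egr site (GCGNGGGCG), the NGFI-B response element of the Nr4a factors (AAAGGTCA) and the CArG box bound by SRF. None of these motifs contains another. Of the sequences, 4 are shown, the Nr4a2 and Fosb windows for genes that were higher in both AD/KO libraries and the Klf2 and Egr2 windows for genes that were lower in both, with the matched motif in capitals (an Egr site in the first 3, a CArG box in Egr2).
Nr4a2, chr2:57123954-57124253, minus strand: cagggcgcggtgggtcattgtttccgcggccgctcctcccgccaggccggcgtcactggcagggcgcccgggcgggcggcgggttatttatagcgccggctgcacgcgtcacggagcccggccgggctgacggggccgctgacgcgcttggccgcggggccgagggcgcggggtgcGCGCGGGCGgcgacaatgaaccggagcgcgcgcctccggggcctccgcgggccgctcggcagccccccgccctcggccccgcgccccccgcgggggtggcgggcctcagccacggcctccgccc
Fosb, chr7:19309996-19310295, minus strand: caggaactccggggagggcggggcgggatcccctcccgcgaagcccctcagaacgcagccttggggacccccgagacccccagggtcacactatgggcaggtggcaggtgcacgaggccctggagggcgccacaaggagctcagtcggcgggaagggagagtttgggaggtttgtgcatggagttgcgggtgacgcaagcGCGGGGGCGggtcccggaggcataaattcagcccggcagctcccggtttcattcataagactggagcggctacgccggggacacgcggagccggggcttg
Klf2, chr8:72318812-72319111, plus strand: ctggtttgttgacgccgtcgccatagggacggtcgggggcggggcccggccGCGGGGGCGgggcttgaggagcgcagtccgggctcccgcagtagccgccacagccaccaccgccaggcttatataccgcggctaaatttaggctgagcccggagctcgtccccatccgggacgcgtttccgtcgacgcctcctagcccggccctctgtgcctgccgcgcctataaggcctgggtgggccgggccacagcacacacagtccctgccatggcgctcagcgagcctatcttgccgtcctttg
Egr2, chr10:67537620-67537919, plus strand: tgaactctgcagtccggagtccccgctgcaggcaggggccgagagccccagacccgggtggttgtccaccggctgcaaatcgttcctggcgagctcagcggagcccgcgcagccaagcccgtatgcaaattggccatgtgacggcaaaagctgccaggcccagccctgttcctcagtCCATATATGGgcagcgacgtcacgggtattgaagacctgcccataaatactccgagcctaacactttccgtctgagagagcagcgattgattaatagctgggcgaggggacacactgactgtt

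The Egr site began 74 bases upstream of the start in Nr4a2, 50 bases upstream in Fosb and 199 bases upstream in Klf2, and the CArG box 73 bases upstream in the Egr2 window, which is 1 of 5 RefSeq starts for that gene. An Egr site was present in 11 of the 35 windows (31.4%), against 5.55% of all 32851 windows of the same length. The windows of the 32 genes also held more G and C (median 63.7% against 52.7%). Of the 11 genes with an Egr site, 3 were higher in both AD/KO libraries (Fosb, Nr4a1 and Nr4a2), 4 were lower in both (Dusp2, Klf2, Klf4 and Maff) and 4 had overlapping groups (Btg2, Fosl2, Gadd45b and Zfp36), so that the site was found on both sides. A CArG box was present in 6 windows of 3 of the 26 genes (Dusp5, Egr2 and Zfp36), 17.1% against 1.63% of all windows. The share by window counts the same site more than once, since several of the Egr2 windows overlap. The CRE was present in 3 windows (Btg2, Dusp1 and Maff), 8.57% against 1.79%, the AP-1 site in 1 (Csrnp1), 2.86% against 7.81%, and the NGFI-B response element in 0, against 1.51%.

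The first comparison asked whether the 32 genes differed between AD/KO and AD. They went in both directions. The Nr4a receptors, Egr3, Fosb, Arc and Npas4 stood above the AD libraries in both AD/KO libraries, while Egr2, the Klf factors, Atf3, Maff, Nfkbiz, Rgs1, Dusp2 and Ier3 stood below. With the quasi-likelihood test of edgeR and p adjusted over all 21439 genes tested (Benjamini-Hochberg), 0 of the 32 genes were under the threshold of 0.05, against 0% of all genes. With DESeq2 as the test, 1 of the 32 genes passed (Nr4a3, log2 fold change 2.66, adjusted p = 0.0436), against 0.420% of all genes. Without AD replicate 2, 2 of the 32 genes passed in edgeR (Nr4a3 and Npas4), against 2.28% of all genes, and without AD replicate 1, 0 passed, against 0.208%. Before adjustment, p was under 0.05 in 8 genes (background 5.0%), of which 5 were higher in AD/KO (Fosb, Egr3, Nr4a3, Arc and Npas4, background 2.70%) and 3 lower (Egr2, Klf2 and Nfkbiz, background 2.30%).

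The groups did not overlap in 21 of the 32 genes, against 42.0% of all genes. Both AD/KO libraries lay above both AD libraries in 10 genes (background 20.3%) and below them in 11 (background 21.7%). The median log2 fold change was −0.27 over the 32 genes and −0.048 over all genes tested, with 13 genes higher and 19 lower (47.2% and 52.8% of all genes), and the values ran from −2.46 (Egr2) to 2.59 (Nr4a3). With levels scaled to the homeostatic microglia markers, which moved the median of all genes to 0.79, 20 of the 32 genes were higher and 12 lower, with a median of 0.37. AD replicate 1 was lowest and AD/KO replicate 2 highest in 11 genes (background 31.1%), and the reverse held in 10 (background 30.7%).

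**Figure D1:**
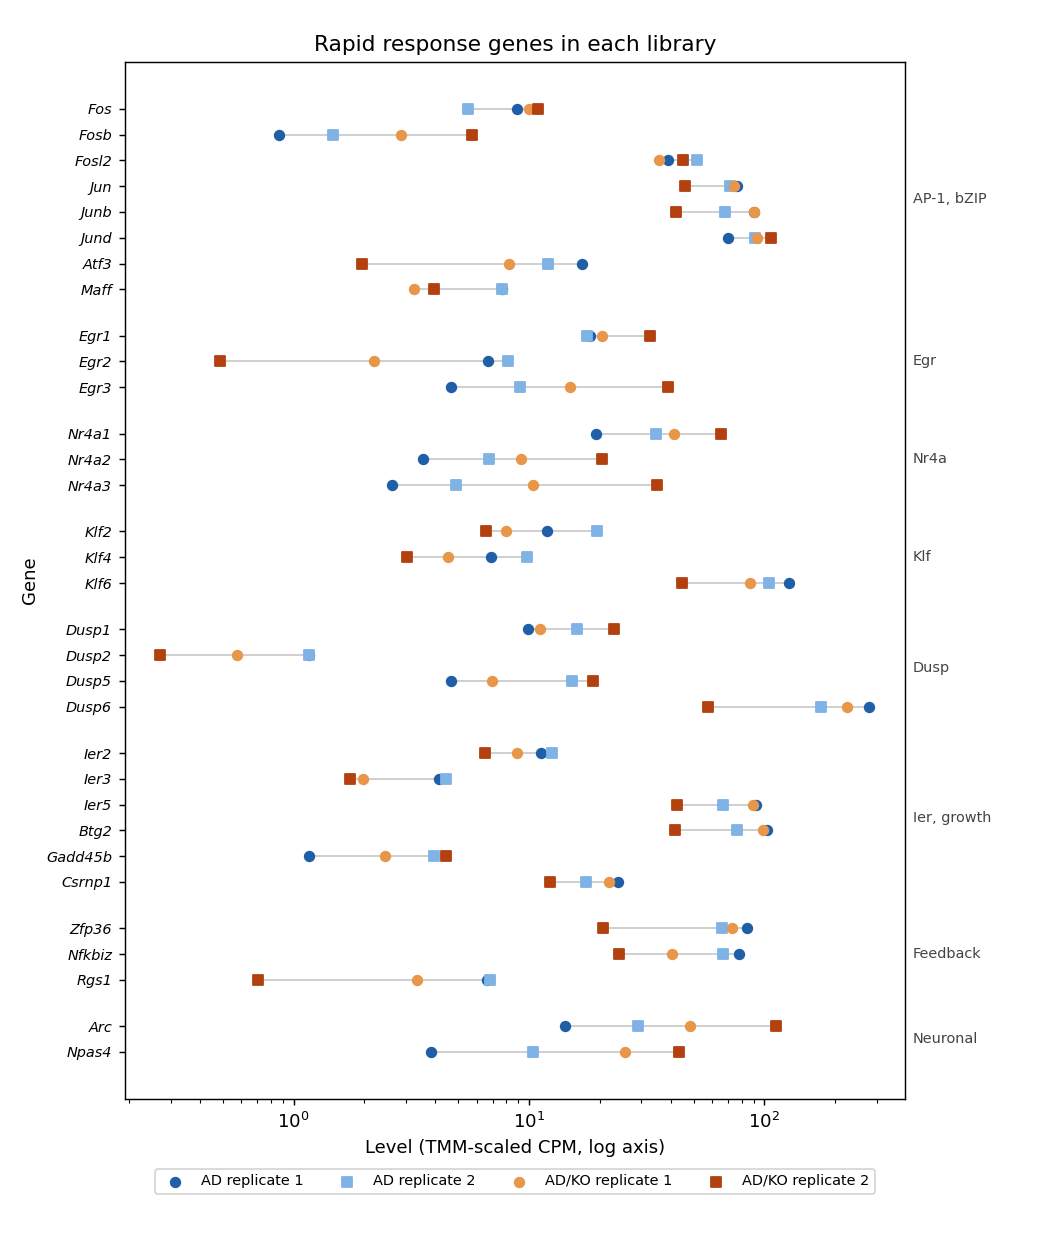
Level of each of the 32 genes in the 4 libraries, as TMM-scaled CPM on a log axis, with 1 point per library and a grey line from the lowest to the highest. Egr2, Egr3, Nr4a3 and Npas4 are spread widely with AD and AD/KO apart, while Jun, Junb, Ier5 and Btg2 have AD/KO replicate 2 below the other 3 libraries.

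The Nr4a receptors, which bind DNA without a known natural ligand and regulate inflammatory genes, were all higher in AD/KO. Nr4a3 (gene ID 18124, chromosome 4, 48045078 to 48086447, protein-coding) stood at 2.61 and 4.92 CPM in the AD libraries and 10.4 and 35.1 CPM in the AD/KO libraries, a mean of 3.77 ± 1.63 CPM (SD, n = 2) against 22.7 ± 17.5 CPM (SD, n = 2). Both AD/KO libraries were above both AD libraries, and AD/KO replicate 2 was 3.38 times as high as AD/KO replicate 1. This is a log2 fold change of 2.59 (SE 0.74), with 0.680 as the adjusted p in edgeR. Nr4a2 stood at 3.56 and 6.76 CPM in AD and 9.28 and 20.4 CPM in AD/KO, with a log2 fold change of 1.52 (SE 0.59). Nr4a1 stood at 19.3 and 34.5 CPM in AD and 41.2 and 65.2 CPM in AD/KO, with a log2 fold change of 0.98 (SE 0.43). In all 3 receptors AD replicate 1 was lowest and AD/KO replicate 2 highest. Nr4a3 was 3.97 times as high in AD/KO replicate 1 as in AD replicate 1 (95% interval from counting error alone 2.77 to 5.83) and 2.11 times as high as in AD replicate 2 (1.62 to 2.77). Without AD/KO replicate 2 the median log2 fold change of the 3 receptors was 0.85 in place of 1.52, and without AD replicate 2 it was 2.12, where Nr4a3 passed the threshold (log2 fold change 3.17, adjusted p = 0.0379 in edgeR). Over the 12 alternative settings the adjusted p of Nr4a3 ran from 0.00247 to 0.99997, and the lowest value came from edgeR with the replicate block described last.

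The Egr factors, zinc finger proteins that bind the same GC-rich site, differed among themselves. Egr2 (gene ID 13654, chromosome 10, 67534469 to 67542188, protein-coding), which macrophages switch on during activation, stood at 6.68 and 8.11 CPM in AD and 2.19 and 0.488 CPM in AD/KO, a mean of 7.40 ± 1.02 CPM (SD, n = 2) against 1.34 ± 1.20 CPM (SD, n = 2). The reads were 92 and 132 against 42 and 9, and both AD/KO libraries lay well below both AD libraries. Its log2 fold change was −2.46 (SE 0.82), the lowest among the 32 genes. Its promoter window, printed with the CArG box, held no Egr site. Egr3 (gene ID 13655, chromosome 14, 70077317 to 70082613, protein-coding), which in the brain follows synaptic activity, ran the other way, from 4.65 and 9.16 CPM in AD to 14.96 and 39.1 CPM in AD/KO, a mean of 6.90 ± 3.19 CPM (SD, n = 2) against 27.04 ± 17.1 CPM (SD, n = 2). Its log2 fold change was 1.97 (SE 0.63), and the groups did not overlap. Egr1 (gene ID 13653, chromosome 18, 34861207 to 34864956, protein-coding), the member that responds in almost all cells, was close in 3 libraries (18.1 and 17.6 CPM in AD and 20.4 CPM in AD/KO replicate 1) and higher in AD/KO replicate 2 (32.8 CPM), with a log2 fold change of 0.57 (SE 0.36). The adjusted p was 0.680 for all 3 Egr genes in edgeR. Per length, the ratio of Egr3 to Egr2 was 0.537 and 0.871 in AD and 5.27 and 61.8 in AD/KO. Both genes are counted in the same library, so this ratio does not depend on library scaling. It can still vary with the mix of cells, whose part was not tested, and the value of 61.8 rests on 9 reads of Egr2. Without AD/KO replicate 2 the log2 fold change of Egr2 was −1.74, that of Egr3 1.12 and that of Egr1 0.20, and without AD/KO replicate 1 that of Egr2 was −3.85.

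The AP-1 group held genes of every pattern. Fosb (gene ID 14282, chromosome 7, 19302696 to 19310118, protein-coding), a Fos relative whose product builds up in repeatedly active neurons, stood at 0.871 and 1.48 CPM in AD and 2.87 and 5.75 CPM in AD/KO, with no overlap, a mean of 1.17 ± 0.427 CPM (SD, n = 2) against 4.31 ± 2.04 CPM (SD, n = 2). The log2 fold change of Fosb was 1.87 (SE 0.66). Fos, the founding member of the family, stood at 8.85 and 5.53 CPM in AD and 9.96 and 10.9 CPM in AD/KO, with a log2 fold change of 0.54 (SE 0.42), and its groups did not overlap either, although AD replicate 1 and AD/KO replicate 1 differed by less than counting error (ratio 1.12, 95% interval 0.891 to 1.42). Jund, the Jun protein present in resting cells, was at 70.1 and 91.6 CPM in AD and 93.2 and 107 CPM in AD/KO (log2 fold change 0.31, SE 0.30), with values of 0.12 without AD replicate 1 and 0.58 without AD replicate 2. For Fos these were 0.90 and 0.30. Over 52.6% of its length Jund is overlapped by Gm11175 on the other strand, and the counting is not stated to use strand, so that reads of the pair cannot be told apart. These 3 genes were the members of the group that lay higher in both AD/KO libraries.

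Atf3, a stress-induced repressor that restrains inflammatory genes in macrophages, lay lower, at 16.8 and 11.99 CPM in AD and 8.18 and 1.95 CPM in AD/KO, with a log2 fold change of −1.50 (SE 0.75). This was −0.80 without AD/KO replicate 2 and −2.82 without AD/KO replicate 1. Maff, a small Maf protein that pairs with other bZIP factors, was at 7.69 and 7.68 CPM in AD and 3.23 and 3.96 CPM in AD/KO, with a log2 fold change of −1.09 (SE 0.43). In both genes the AD/KO libraries lay below the AD libraries, and the 2 AD libraries of Maff were nearly equal. Jun and Junb, which form dimers with Fos, were level in AD replicate 1 and AD/KO replicate 1, at 76.2 and 74.1 CPM for Jun and 90.4 and 90.1 CPM for Junb. AD/KO replicate 2 was lowest in both, at 45.9 and 42.1 CPM, and AD replicate 2 held 71.5 and 68.2 CPM. The log2 fold changes were −0.30 (SE 0.34) for Jun and −0.26 (SE 0.45) for Junb, and without AD/KO replicate 2 they were 0.016 and 0.19, so that the direction rested on that library. It also turned with levels scaled to the homeostatic markers (0.39 and 0.34). Fosl2 was at 39.05 and 51.6 CPM in AD and 35.7 and 45.3 CPM in AD/KO (log2 fold change −0.16, SE 0.31), with overlapping groups, and its direction turned with homeostatic scaling (0.77), without AD replicate 2 (0.12) and when AD/KO replicate 1 was left out (0.053). Adjusted p ran from 0.680 to 0.841 over the 8 genes of the group in edgeR.

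The Klf factors, which in myeloid and endothelial cells hold back inflammatory genes (Klf2 and Klf4) or respond to injury (Klf6), were lower in AD/KO in all 3 cases. Their log2 fold changes stayed negative under each scaling tried, with a median of −0.37 when scaled to the homeostatic markers. Relative to the sum of those markers in each library, their groups overlapped. Klf2 (gene ID 16598, chromosome 8, 72319062 to 72321654, protein-coding) stood at 11.9 and 19.5 CPM in AD and 7.98 and 6.57 CPM in AD/KO, a mean of 15.7 ± 5.36 CPM (SD, n = 2) against 7.27 ± 0.997 CPM (SD, n = 2). Its log2 fold change was −1.11 (SE 0.42), and its promoter window is the third printed. Klf4 was at 6.90 and 9.77 CPM in AD and 4.54 and 3.04 CPM in AD/KO, with a log2 fold change of −1.14 (SE 0.48). Both genes were highest in AD replicate 2, the library with the highest neutrophil and monocyte markers, whose part in the result was not tested. Without that library the log2 fold changes were −0.65 for Klf2 and −0.80 for Klf4. Klf6 was at 127 and 105 CPM in AD and 86.8 and 44.9 CPM in AD/KO, with a log2 fold change of −0.82 (SE 0.41), and the value was −0.41 without AD/KO replicate 2 and −1.32 without AD/KO replicate 1. In edgeR the adjusted p of all 3 was 0.680.

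The feedback genes were lower too, though only Nfkbiz and Rgs1 without overlap. Nfkbiz (gene ID 80859, chromosome 16, 55811375 to 55838954, protein-coding) encodes a nuclear IkB protein that Toll-like receptor and interleukin-1 signals induce. It stood at 78.4 and 66.5 CPM in AD and 40.6 and 24.04 CPM in AD/KO, a mean of 72.4 ± 8.40 CPM (SD, n = 2) against 32.3 ± 11.7 CPM (SD, n = 2), with no overlap between the groups. The log2 fold change was −1.16 (SE 0.36). Rgs1, which dampens signalling by chemokine receptors and is often seen in isolated microglia, was at 6.60 and 6.82 CPM in AD and 3.34 and 0.705 CPM in AD/KO, with a log2 fold change of −1.73 (SE 0.82), and this was −1.0 without AD/KO replicate 2 and −3.18 without AD/KO replicate 1. Zfp36, which marks cytokine transcripts for decay, was at 84.3 and 66.1 CPM in AD and 72.7 and 20.7 CPM in AD/KO (log2 fold change −0.69, SE 0.63). In Zfp36 AD/KO replicate 1 lay between the AD libraries and AD/KO replicate 2 far below, and without AD/KO replicate 2 the log2 fold change was −0.037. Zfp36 shares stretches of 100 to 141 bases, at an identity of at least 95%, with transcripts of other genes, and Gm44710 overlaps 3.6% of it on the other strand.

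The Dusp phosphatases, which switch off MAP kinases, split by member. Dusp6, which acts on ERK, stood at 279 and 174 CPM in AD and 225 and 57.8 CPM in AD/KO, with a log2 fold change of −0.68 (SE 0.71). Its groups overlapped, and AD/KO replicate 1 was 3.88 times as high as AD/KO replicate 2. Without AD/KO replicate 2 the log2 fold change was −0.0010, and without AD/KO replicate 1 it was −1.92. Dusp2, a nuclear phosphatase of immune cells, was low throughout, at 1.16 and 1.17 CPM in AD and 0.573 and 0.271 CPM in AD/KO, with a log2 fold change of −1.44 (SE 0.72) that rests on 16 and 19 reads against 11 and 5. Dusp1, which acts on p38 and JNK, was at 9.94 and 15.9 CPM in AD and 11.2 and 23.1 CPM in AD/KO (log2 fold change 0.40, SE 0.50), and Dusp5 at 4.65 and 15.3 against 6.93 and 18.8 CPM (log2 fold change 0.36, SE 0.77). In both of these genes replicate 2 exceeded replicate 1 in either group, by 1.60 to 3.29 times, and the groups overlapped. Without AD/KO replicate 2 their log2 fold changes turned to −0.20 (Dusp1) and −0.52 (Dusp5), and without AD replicate 1 that of Dusp5 turned to −0.27. Over 22.1% of its length Dusp5 is overlapped by an antisense gene, AC137853.2, whose reads cannot be told apart here.

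Among the growth and stress genes, Ier3, an NF-kB target that affects cell survival, stood at 4.14 and 4.43 CPM in AD and 1.98 and 1.74 CPM in AD/KO. The libraries of each group were close to each other, and the log2 fold change was −1.20 (SE 0.50). Ier2 was at 11.2 and 12.5 CPM in AD and 8.86 and 6.51 CPM in AD/KO, also without overlap, with a log2 fold change of −0.63 (SE 0.38) that turned with homeostatic scaling (0.11). Ier5, Btg2 (an inhibitor of proliferation) and Csrnp1 shared the pattern of Jun and Junb. Ier5 was at 92.5 and 66.7 CPM in AD and 89.8 and 42.6 CPM in AD/KO (log2 fold change −0.27, SE 0.45), Btg2 at 102 and 76.3 against 98.4 and 41.7 CPM (log2 fold change −0.35, SE 0.49), and Csrnp1 at 23.8 and 17.4 against 21.8 and 12.3 CPM (log2 fold change −0.27, SE 0.42). AD/KO replicate 1 lay close to AD replicate 1 and AD/KO replicate 2 was lowest in each, and without AD/KO replicate 2 the 3 directions turned (0.18, 0.15 and 0.095), as they did with homeostatic scaling (0.35, 0.21 and 0.42). Gadd45b, induced by stress and cytokines, was at 1.16 and 3.93 CPM in AD and 2.45 and 4.45 CPM in AD/KO (log2 fold change 0.43, SE 0.78), with overlapping groups, and turned without AD replicate 1 (−0.21) and without AD/KO replicate 2 (−0.051). Over the 6 genes the adjusted p in edgeR ran from 0.680 to 0.833.

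**Figure D2:**
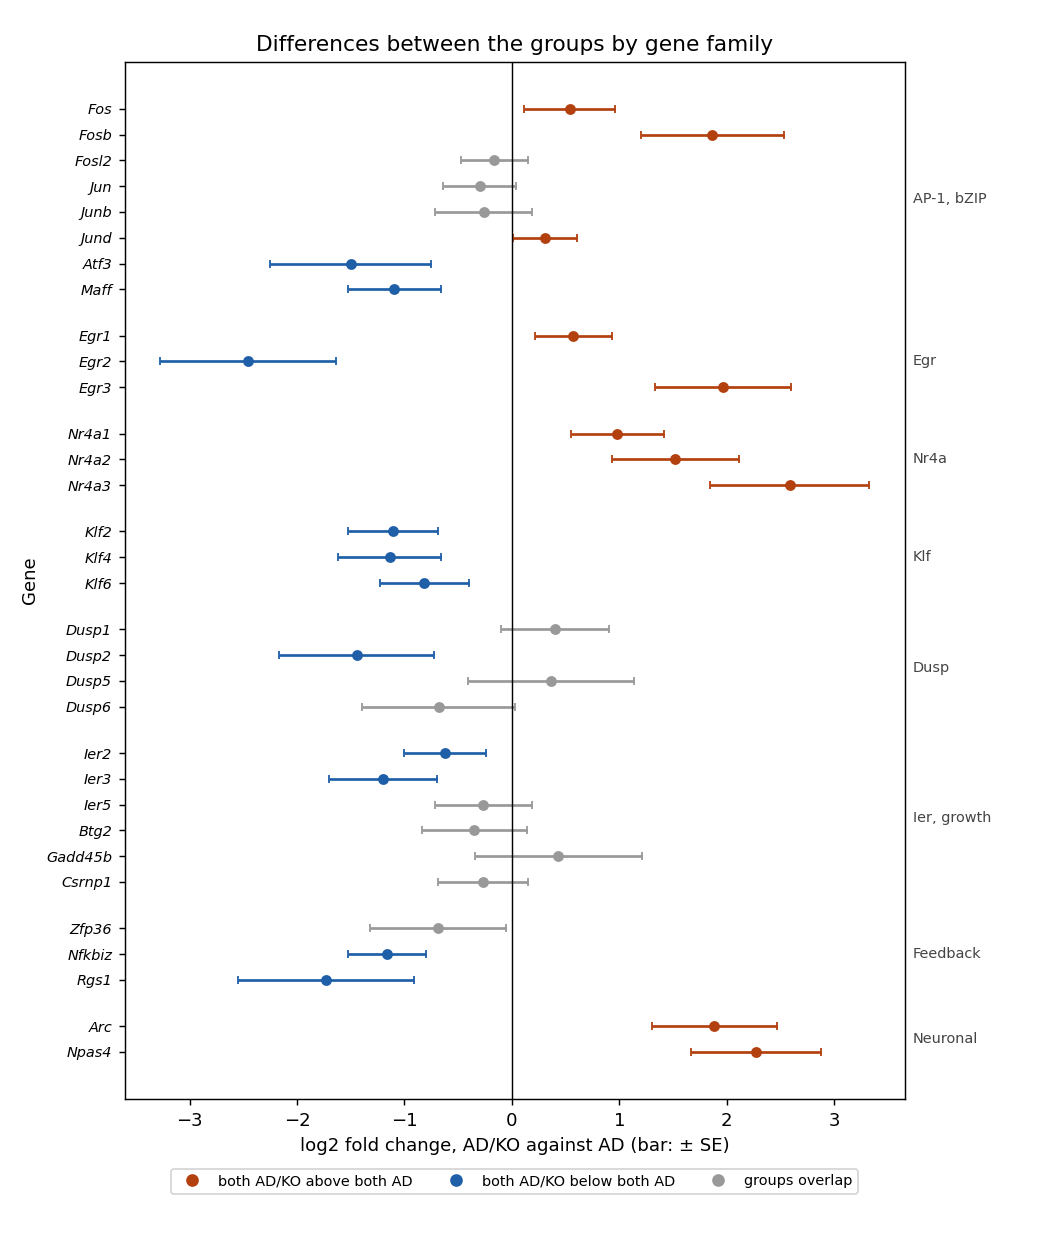
log2 fold change of AD/KO against AD for each of the 32 genes (point) with its standard error (bar), grouped by family. All 3 Nr4a genes lie to the right of 0 and all 3 Klf genes to the left, while Egr2 (−2.46) and Egr3 (1.97) lie on opposite sides.

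Arc and Npas4, the genes best known from neurons, were among the largest differences. Npas4 (gene ID 225872, chromosome 19, 4984353 to 5003439, protein-coding), a factor that calcium entry induces in neurons, stood at 3.85 and 10.4 CPM in AD and 25.6 and 43.4 CPM in AD/KO, a mean of 7.12 ± 4.63 CPM (SD, n = 2) against 34.5 ± 12.6 CPM (SD, n = 2). The log2 fold change was 2.27 (SE 0.61). Arc (gene ID 11838, chromosome 15, 74669081 to 74672570, protein-coding), which regulates glutamate receptors at synapses, stood at 14.2 and 29.1 CPM in AD and 48.4 and 112 CPM in AD/KO, a mean of 21.7 ± 10.5 CPM (SD, n = 2) against 80.1 ± 44.8 CPM (SD, n = 2), with a log2 fold change of 1.88 (SE 0.58). In both genes the AD/KO libraries lay above the AD libraries, and within each group replicate 2 exceeded replicate 1. Without AD/KO replicate 2 the log2 fold change of Arc was 1.17 and that of Npas4 1.85. The adjusted p in edgeR was 0.680 for both. For Npas4 the log2 fold change was 3.22 without AD replicate 2. Its adjusted p ran from 0.00217 to 0.99997 over the 12 alternative settings, and the lowest value came from edgeR with the replicate block described last. Summed neuron markers were 7.61 times as high in AD/KO replicate 2 as in AD replicate 1, and Arc and Npas4 together 8.59 times as high.

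Levels were compared between genes per kilobase of exon, using exon lengths of GENCODE M21. Dusp6 had the highest mean over the 4 libraries, at 58.7 CPM per kb, followed by Jund at 54.3, Junb at 31.6, Btg2 at 29.1 and Ier5 at 22.2 CPM per kb. Fos, whose transcript is short-lived, ranked 22nd of the 32 genes at 3.75 CPM per kb. The order differed by library. In AD/KO replicate 2 Dusp6 stood at 18.5 CPM per kb, below Jund (64.2) and Arc (36.6), and in AD replicate 2 Dusp6 and Jund were nearly level (55.5 and 54.9 CPM per kb). Arc had a mean of 16.6 CPM per kb but stood below Nr4a1 in both AD libraries (4.65 against 5.50 and 9.53 against 9.84 CPM per kb) and above it in both AD/KO libraries (15.8 against 11.8 and 36.6 against 18.6 CPM per kb). At the lower end stood Rgs1 at 0.629, Fosb at 0.439 and Dusp2 at 0.396 CPM per kb. Within the AP-1 group the balance of Jun transcripts differed across libraries, with a Jund to Junb ratio per length of 1.07 and 1.85 in AD and 1.43 and 3.51 in AD/KO. The Fosb to Fos ratio per length was 0.0371 and 0.100 in AD and 0.108 and 0.199 in AD/KO.

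Since the markers of other brain cells differed between libraries, the genes were set beside them. In bulk samples, fewer cells of a type and less RNA per cell cannot be told apart. Of the 10 genes higher in both AD/KO libraries, Fosb, Jund, Egr3, Arc, Npas4 and the 3 Nr4a genes were also higher in AD replicate 2 than in AD replicate 1 and higher in AD/KO replicate 2 than in AD/KO replicate 1, whereas the neuron markers were higher in AD replicate 2 than in AD/KO replicate 1. That holds for the summed neuron markers, whereas Gad2 and Tubb3 were slightly lower in AD replicate 2. AD replicate 2 and AD/KO replicate 1 also had similar astrocyte markers (4480 and 4682 CPM). Other markers differed, at 5077 against 542 CPM for neutrophils and 375 against 33.8 CPM for monocytes. Homeostatic microglia markers stood at 15357 against 22822 CPM and oligodendrocyte markers at 2610 against 3906 CPM. Their part in the result was not tested. In this pair, chosen after the marker levels were seen, Npas4 was 2.46 times as high in AD/KO replicate 1 as in AD replicate 2 (95% interval 2.06 to 2.95), Nr4a3 2.11 times (1.62 to 2.77), Arc 1.66 times (1.49 to 1.86), Egr3 1.63 times (1.34 to 2.005) and Nr4a1 1.19 times (1.07 to 1.33). Jund (1.02, 0.949 to 1.09) and Egr1 (1.16, 0.992 to 1.35), which were also higher in both AD/KO libraries, had intervals that hold 1. Of all 32 genes, 14 had an interval above 1 in this pair, 14 had one below 1 and 4 one that holds 1. Those above 1 included Junb, Dusp6, Ier5, Btg2, Csrnp1 and Zfp36, whose log2 fold changes over all libraries were negative. Such intervals were not computed for all genes, so the counts have no background and describe nothing particular to the 32 genes. For the genes that were higher in both AD/KO libraries, a ratio above 1 in this pair was fixed in advance by that choice. The intervals are exact binomial and cover counting error only, and 1 library against 1 allows no test.

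**Figure D3:**
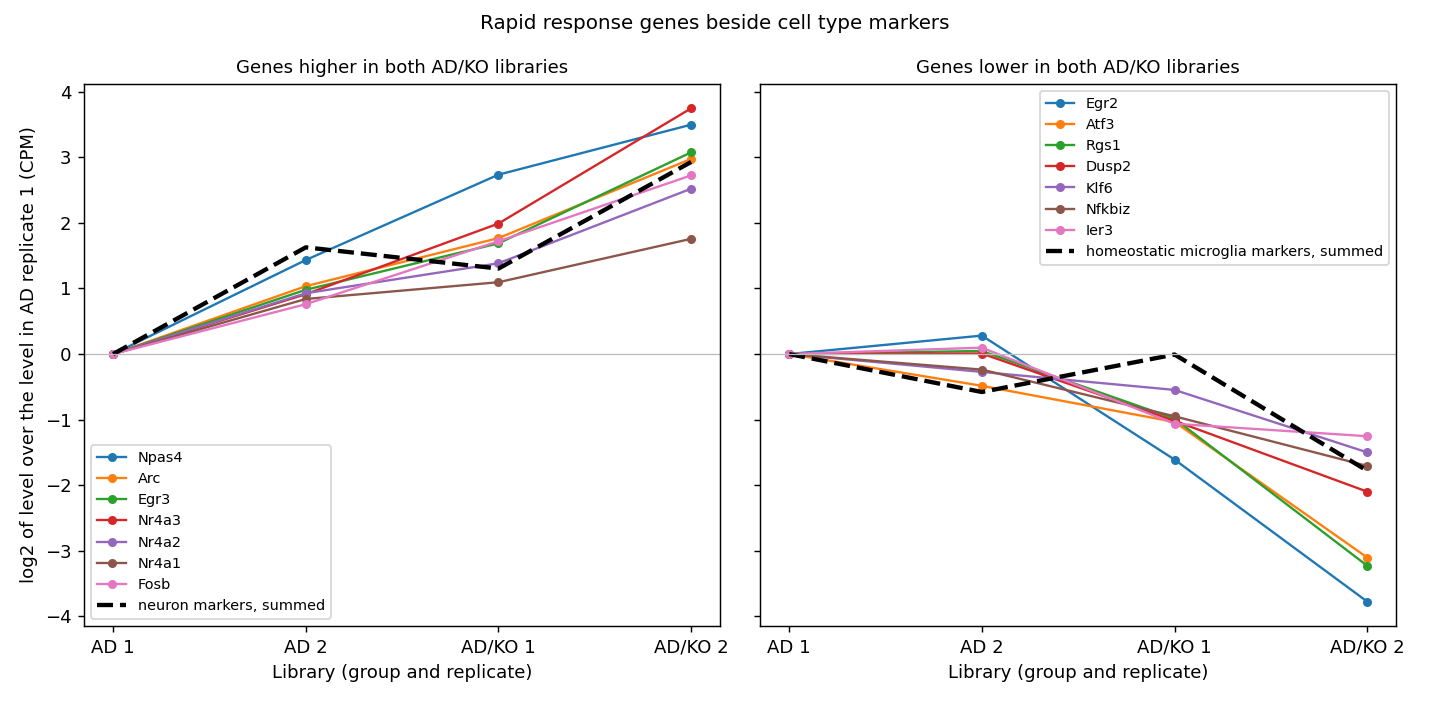
Levels of 7 genes that were higher (left) and 7 that were lower (right) in both AD/KO libraries, as log2 of the CPM over that in AD replicate 1, with the summed markers of neurons or of homeostatic microglia as a dashed line and lines drawn only to link the points. In AD/KO replicate 1 the neuron markers lie below their level in AD replicate 2 while the 7 genes lie above it, and the microglia markers are near their level in AD replicate 1 (22822 against 22933 CPM) while the 7 genes at right lie below it. The genes were chosen as higher or lower in both AD/KO libraries, so that their side in these comparisons was fixed in advance.

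For the genes that were lower, AD replicate 1 and AD/KO replicate 1 were set side by side, a pair also chosen after the marker levels were seen, with 22933 and 22822 CPM of homeostatic microglia markers, 395 and 542 CPM of neutrophil markers and 66.3 and 33.8 CPM of monocyte markers. Within the pair the monocyte marker Ccr2 stood at 39.8 against 10.3 CPM. Other markers differed as well, at 128 against 67.6 CPM for border-associated macrophages, 618 against 1525 CPM for neurons and 1903 against 4682 CPM for astrocytes. The part of these markers in the result was not tested. Egr2 was 3.05 times as high in AD replicate 1 as in AD/KO replicate 1 (95% interval 2.10 to 4.50), Maff 2.38 times (1.72 to 3.31), Ier3 2.09 times (1.36 to 3.24), Atf3 2.05 times (1.67 to 2.53), Rgs1 1.98 times (1.42 to 2.77), Nfkbiz 1.93 times (1.76 to 2.12) and Klf6 1.46 times (1.37 to 1.56). Dusp2 was 2.03 times as high with an interval of 0.883 to 4.83, so that no difference was detectable at its depth. All these genes were lower in both AD/KO libraries, so that the direction of their ratios was fixed in advance by that choice. In the same pair Jun, Junb, Ier5, Btg2 and Csrnp1 had ratios of AD/KO replicate 1 to AD replicate 1 between 0.918 (Csrnp1) and 0.996 (Junb), each with an interval that holds 1.

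Each gene was then expressed per 1000 CPM of summed markers within its own library. Relative to the neuron list, 4 of the 32 genes were higher in both AD/KO libraries (Egr3, Nr4a3, Arc and Npas4, against 5.93% of all genes) and 14 lower (against 21.7%). Npas4 came to 6.22 and 5.44 per 1000 CPM of neuron markers in AD and 16.8 and 9.23 in AD/KO, and Nr4a3 to 4.23 and 2.58 in AD and 6.80 and 7.45 in AD/KO. For Arc the values were 23.0 and 15.3 in AD and 31.8 and 23.8 in AD/KO, and for Egr3 7.52 and 4.80 against 9.81 and 8.32, so that the nearest libraries of the 2 groups were close. Fosb, Nr4a1 and Nr4a2 overlapped on this scale. Relative to the homeostatic microglia list, 6 genes were lower in both AD/KO libraries (Atf3, Egr2, Dusp2, Dusp6, Zfp36 and Rgs1, against 7.71% of all genes) and 6 higher (Fos, Fosb, Egr3, Nr4a3, Arc and Npas4, against 6.85%). Egr2 came to 0.291 and 0.528 per 1000 CPM of these markers in AD and 0.0959 and 0.0730 in AD/KO, Atf3 to 0.731 and 0.780 against 0.359 and 0.292, and Rgs1 to 0.288 and 0.444 against 0.146 and 0.106. The Klf genes, Maff, Ier3 and Nfkbiz overlapped on it. Relative to the astrocyte list, 5 genes were higher (Fosb, Egr3, Nr4a3, Arc and Npas4, against 5.17% of all genes) and 17 lower (against 48.0%).

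**Figure D4:**
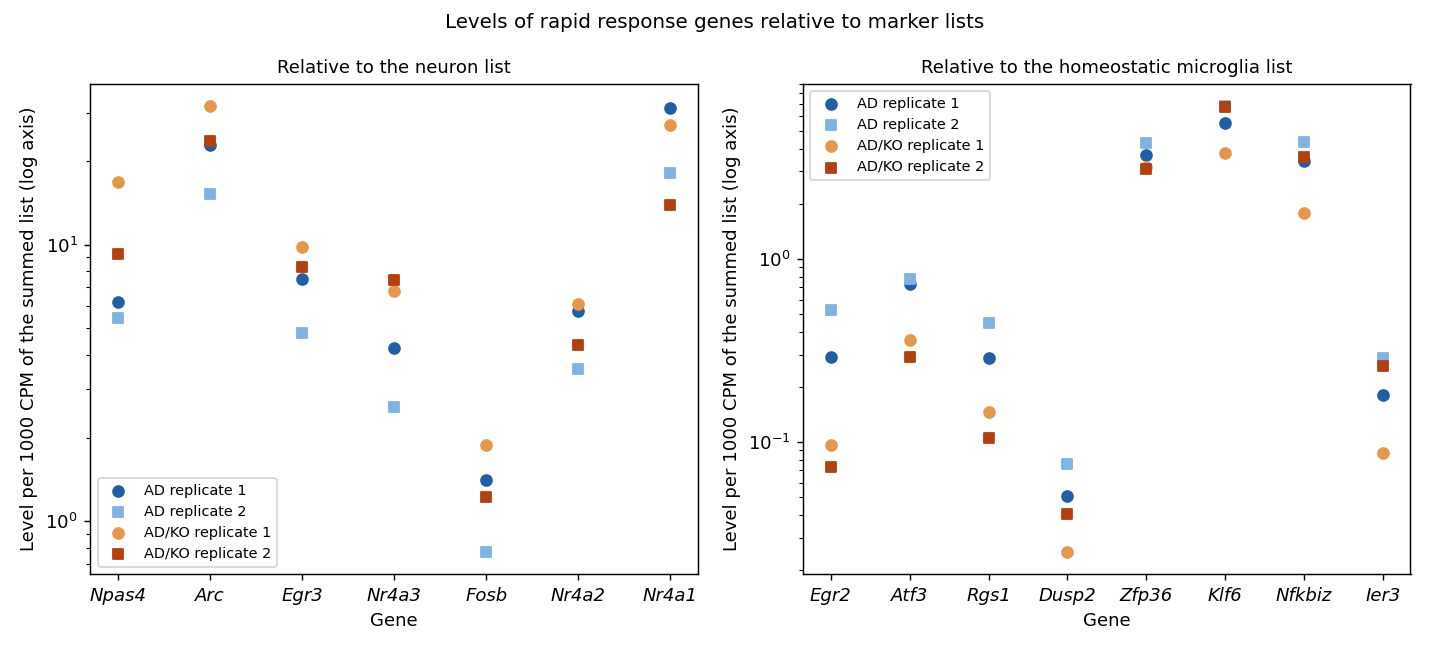
Level of 7 genes per 1000 CPM of summed neuron markers (left) and of 8 genes per 1000 CPM of summed homeostatic microglia markers (right) in each library, on log axes. Npas4 and Nr4a3 stay apart between AD and AD/KO at left, and Egr2, Atf3 and Rgs1 at right, while Nr4a1, Klf6 and Nfkbiz overlap.

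With the mean log2 level of the neuron and astrocyte markers as a covariate, the log2 fold changes were 1.37 for Npas4, 1.12 for Nr4a3, 0.99 for Fosb, 0.79 for Arc and 0.76 for Egr3. On that fit Egr2 stood at −2.01, Nfkbiz at −0.74, Klf2 at −1.29 and Atf3 at −0.62. The fit spends 3 coefficients on 4 libraries, and 0 of the 32 genes passed the threshold in it, against 0.0373% of all genes. Before adjustment, p in edgeR was under 0.05 for 10 of the 32, against 8.52% of all genes.

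Other genes of the pathway were described from 5 lists. Over all genes tested, 20.3% were higher and 21.7% lower without overlap, and 5.0% had an unadjusted p under 0.05 in edgeR. Among 29 kinases and transcription factors that act upstream, 10 were higher and 19 lower, with a median log2 fold change of −0.19, 4 higher and 10 lower without overlap, and 0 at an unadjusted p under 0.05 in edgeR. With homeostatic scaling 27 of the 29 were higher, and the median was 0.78, close to that of all genes (0.79). The extremes were Elk1, an SRF partner (log2 fold change 1.03, SE 0.56), and Mrtfb, an SRF coactivator (log2 fold change 0.60, SE 0.40), on the higher side, and Rps6ka3, a kinase downstream of ERK (log2 fold change −0.85, SE 0.45), and Elk3 (log2 fold change −0.69, SE 0.57) on the lower. Of the other AP-1, CREB and Maf genes, 17 of 18 were tested, and 15 of these were lower, with a median of −0.37 and 2 without overlap. Jdp2 (log2 fold change 0.77, SE 0.54) and Atf5 (log2 fold change 0.79, SE 0.47) were higher, and Atf6, a sensor of stress in the endoplasmic reticulum (log2 fold change −0.65, SE 0.35), and Nfe2l2, which drives the antioxidant response (log2 fold change −0.59, SE 0.49), the lowest among those of at least 5 CPM. Over the 12 alternatives the median of this list was positive in 3, with scaling to the homeostatic list (0.27, 15 of 17 higher), with the covariate (0.15) and without AD/KO replicate 2 (0.053).

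In the list of 38 other rapid response genes, 16 were higher and 22 lower (median −0.098). Without overlap, 7 were higher (20.3% of all genes) and 6 lower (21.7% of all genes). An unadjusted p under 0.05 in edgeR was found for 5 of the 38 (5.0% of all genes). The median turned positive with homeostatic scaling (0.58), with the covariate (0.070) and without AD/KO replicate 2 (0.043). Egr4, a further member of the Egr family, stood at 1.45 and 3.13 CPM in AD and 6.83 and 13.2 CPM in AD/KO (log2 fold change 2.12, SE 0.64), the direction of Egr3. Plk2, a kinase that active neurons induce, was at 4.72 and 13.9 CPM in AD and 19.97 and 50.03 CPM in AD/KO (log2 fold change 1.91, SE 0.72). On the lower side Pim1, a kinase that cytokines induce, was at 16.3 and 24.1 CPM in AD and 8.71 and 9.88 CPM in AD/KO (log2 fold change −1.12, SE 0.37), and Myc at 39.4 and 25.5 against 26.9 and 9.17 CPM (log2 fold change −0.85, SE 0.59), with overlap. Per1 (log2 fold change 1.14, SE 0.36) and Ccn1 (log2 fold change 2.12, SE 0.82) also had an unadjusted p under 0.05 and are named because they did.

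The genes known to rise in isolated microglia split by kind. Of the 9 tested of 10, the cytokines and chemokines were lower, with Ccl3 at 18.1 and 22.1 CPM in AD and 5.11 and 1.36 CPM in AD/KO (log2 fold change −2.63, SE 0.71) and Ccl4 at 13.9 and 13.8 against 3.49 and 1.19 CPM (log2 fold change −2.55, SE 0.63), and Tnf (log2 fold change −2.44, SE 0.61) and Il1b (log2 fold change −1.42, SE 0.35), named after their values were seen, went the same way. All 4 had no overlap and an unadjusted p under 0.05 in edgeR. Over all genes, 21.7% were lower without overlap and 2.30% were lower at such a p. The chaperones that heat and handling induce did not share that direction, with Hsph1 at 20.8 and 21.6 CPM in AD and 28.3 and 61.2 CPM in AD/KO (log2 fold change 1.07, SE 0.45) and Dnajb1 at 23.8 and 27.8 against 29.8 and 27.4 CPM (log2 fold change 0.15, SE 0.28). The median of this whole list was −1.08. Over the 12 alternatives it ran from −1.39 with the replicate block to −0.059 with the neuron and astrocyte covariate. It was −0.49 with homeostatic scaling and −0.36 without AD/KO replicate 2. Of 8 further neuronal activity genes, 7 were higher in AD/KO (median 1.57), 5 of them without overlap (20.3% of all genes). The higher genes included Nptx2 at 1.31 and 1.60 CPM in AD and 5.84 and 16.2 CPM in AD/KO (log2 fold change 2.92, SE 0.68) and Vgf at 13.5 and 20.96 against 47.3 and 152 CPM (log2 fold change 2.53, SE 0.65). Homer1 (log2 fold change 1.14, SE 0.56) overlapped, and Fbxo33 (log2 fold change −0.28, SE 0.38) was the 1 that was lower, though with homeostatic scaling all 8 were higher. The median of the 8 genes was 0.56 without AD/KO replicate 2 (also 8 of 8 higher) and 0.31 with the neuron and astrocyte covariate. No gene of the 5 lists passed the threshold (adjusted p of 0.680 or more in edgeR).

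**Figure D5:**
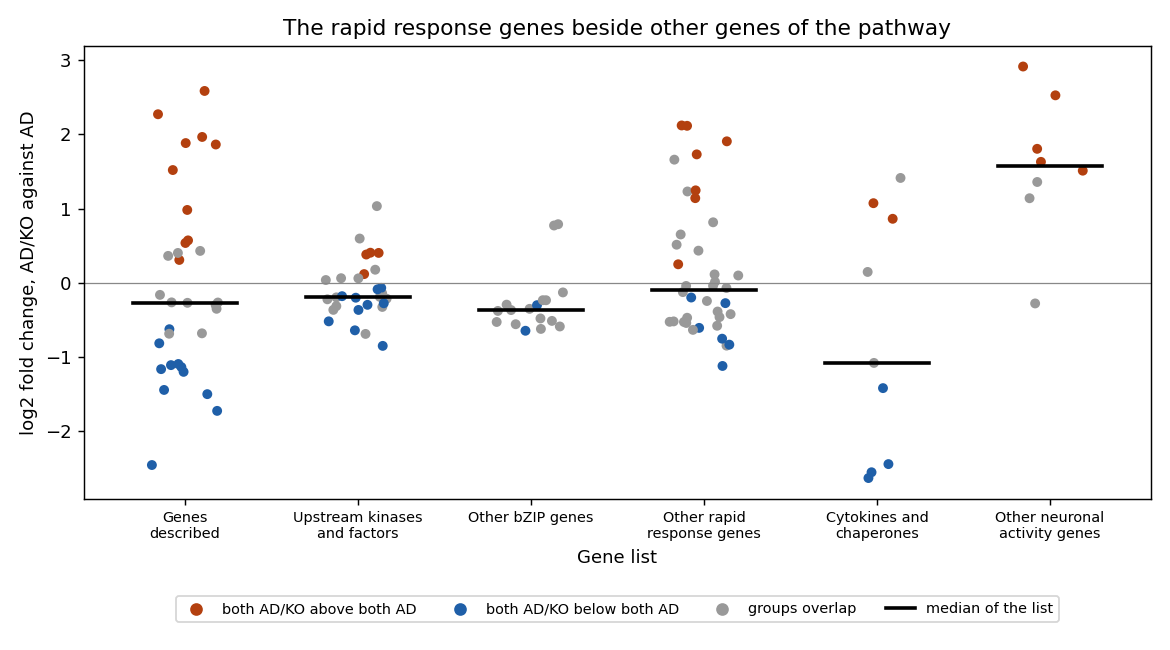
log2 fold change of AD/KO against AD for the 32 genes described and for the tested genes of the 5 other lists, 1 point per gene, with the median of each list as a bar. Neuronal activity genes lie above 0 with 1 exception, and the medians of the upstream genes (−0.19) and other rapid response genes (−0.098) lie nearest to 0.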

How the data were processed

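For each library the authors deposited raw read counts by gene symbol, as whole numbers. HISAT2, SAMtools, featureCounts and mm10 are named per the submitters' processing notes, without settings, so the use of strand is not given in the sources used here. Per the labels' protocols the RNA came from TRIzol extracts, and stranded libraries were built after depletion of ribosomal RNA. Symbols matched RefSeq for GRCm38.p6 (49993 of 49993 genes), which gave coordinates and promoters. Broken lines without a count (11 per table) were left out.

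The 4 libraries were fitted with edgeR 4.0.16 in R 4.3.3 (quasi-likelihood F-test, TMM, no covariates), on genes kept by filterByExpr (at least 10 counts, at least 15 in total). Benjamini-Hochberg adjustment covered every gene tested, with a threshold of 0.05. The standard error is the log2 fold change divided by the square root of F. A single-gene exact permutation test of 2 libraries against 2 cannot go below p = 0.333. The script was checked on simulated counts. The 32 genes and all lists were chosen with earlier results of these data known. Named outside the 32 genes were, per list, the 2 highest and 2 lowest log2 fold changes at a mean of at least 5 CPM. Alternatives were DESeq2 1.42.0, its size factors, 2 other filters, another quasi-likelihood method, a replicate block, scaling to homeostatic markers, a neuron and astrocyte covariate, and each library left out. Intervals between single libraries (95%, exact binomial) cover counting error only, since reads carry no molecular identifiers.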

Additional observations from a re-analysis of the deposited data

How the results depend on the processing

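Of 383 values for single genes under the 12 alternatives, 337 had the same sign and the same call, 29 changed direction and 17 newly passed the threshold, 14 of these under the replicate block described last. No direction changed among the 21 genes whose groups did not overlap, except for Ier2. With 1 library left out this was largely fixed in advance, since both AD/KO libraries lay on 1 side of both AD libraries in these genes. With DESeq2 as the test, 90 genes passed, of which 1 was among the 32 (Nr4a3). Its size factors in edgeR, either other filter and the other quasi-likelihood method gave 0 genes, as in the reported fit. Dusp2 did not reach a mean of 1 CPM and was absent under that filter. With levels scaled to the homeostatic markers, all genes had a median of 0.79, 81.2% of genes were higher, and the median of the 32 genes was 0.37. The log2 fold changes that changed sign there were Fosl2 0.77, Jun 0.39, Junb 0.34, Ier2 0.11, Ier5 0.35, Btg2 0.21 and Csrnp1 0.42. With the neuron and astrocyte covariate, 8 genes passed, 0 of them among the 32, the median was 0.037, and the changed signs were Jun 0.034, Junb 0.36, Dusp1 −0.47, Dusp5 −1.07, Dusp6 0.31, Ier5 0.39, Btg2 0.33, Gadd45b −0.63, Csrnp1 0.30 and Zfp36 0.087. The cause of these changes was not tested.

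With 1 library left out, its group is assumed to vary like the other. From 0 to 524 genes passed, and from 0 to 2 of the 32 genes. The most came without AD replicate 2 (524 genes), with 48 without AD replicate 1 and 0 without either AD/KO library. The median of the 32 genes ran from −0.75 to −0.019, the lowest without AD/KO replicate 1 and the highest without AD/KO replicate 2. Genes whose log2 fold change took both signs when a library was left out ranged as follows: Dusp5 −0.52 to 1.52, Gadd45b −0.21 to 1.62, Fosl2 −0.36 to 0.12, Jun −0.63 to 0.016, Junb −0.86 to 0.19, Dusp1 −0.20 to 0.89, Ier5 −0.85 to 0.18, Btg2 −1.05 to 0.15 and Csrnp1 −0.69 to 0.10. The cause was not tested.

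A fit with the replicate number as a block called 4333 genes (2878 higher and 1455 lower, 20.2% of those tested), of which 14 were among the 32, 7 higher (Fosb, Egr3, Nr4a1, Nr4a2, Nr4a3, Arc and Npas4) and 7 lower (Atf3, Maff, Egr2, Klf2, Klf6, Nfkbiz and Rgs1). Nothing in the labels ties a replicate number to a litter, day or animal. Across genes, the deviations of libraries with the same number correlated at 0.74, but 2 pairs do not show a pairing. Depth limits Dusp2, Egr2 and Rgs1 most, with 5, 9 and 13 reads in AD/KO replicate 2.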
